A study of Mus musculus with 24 samples.

Results

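HOX genes encode the homeodomain transcription factors that give cells their position along the body axis, and the mouse carries them in 4 clusters, HoxA to HoxD. Genes with the same paralog number descend from a common ancestral gene, and low to high numbers follow the order of the genes along each cluster and, in the embryo, their order of activation from head to tail. The kidney needs them as it forms: the Hox11 paralogs are needed in the metanephric mesenchyme that forms the nephrons, and the Hoxb7 promoter is the standard driver of transgenes in the ureteric bud, the outgrowth that becomes the collecting duct. The values below describe all genes whose symbol is Hox followed by a cluster letter and a number, which were 39 of the 55416 rows of the expression table, in single cortical collecting ducts of adult mice.

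Each of 24 libraries held the polyadenylated RNA of 1 cortical collecting duct, microdissected from the kidney of a male C57BL/6 mouse about 10 weeks of age. The 4 MUT mice carried beta-catenin with alanine in place of threonine 551 and serine 552, per the labels' protocols, while the table's own legend gives the serine change alone. The 4 WT mice carried the normal protein, and 3 tubules came from each mouse of both groups. No treatment was compared: the labels give vehicle in 1 field and no treatment in another, for all samples alike. The labels do not say whether the mutation was in every cell of the animal, nor whether MUT and WT mice were littermates. Levels are the authors' TPM, transcripts scaled to a fixed total, and corrected for gene length, so that different genes can be set side by side and no sequencing depth is kept. The mouse was the replicate, and errors are SDs over the means of 4 or 8 mice.

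Markers of the labelled tubule were high in every library. The 10 principal cell markers summed to between 27590 and 46250 TPM in MUT libraries and between 23410 and 55540 TPM in WT libraries. Other segments were present unevenly: 7 libraries, 2 MUT and 5 WT, had over 500 TPM of summed markers of erythrocytes, the proximal tubule or the thick ascending limb. The erythrocyte markers summed to 0.62 to 203.5 TPM in MUT libraries and 1.48 to 24920 TPM in WT libraries, all 5 of them with a mean of at least 1 TPM. The proximal tubule list reached 1262 TPM in MUT and 5560 TPM in WT libraries, with 7 of 8 members at a mean of at least 1 TPM, and the thick ascending limb list reached 412 TPM in MUT and 4798 TPM in WT libraries. In bulk RNA of a tubule, fewer cells of a type and less RNA per cell cannot be told apart.

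Promoter sequence from RefSeq, build GRCm38.p6, was matched by symbol for 22 of the 39 genes. These had 24 promoters of 300 bases each, 250 before the start of transcription and 50 after it. Hoxb2, Hoxb3, Hoxb5, Hoxb6, Hoxb7 and Hoxb9, all of at least 1 TPM in the tubule, had no matched promoter. The motif counts below leave these genes out. Those of Hoxd8, the highest HOX gene of the tubule, and of Hoxa9 and Hoxd10, a pair from different clusters whose levels went up and down together between tubules, are shown because the levels reported here turn on them. Beta-catenin acts on genes through TCF/LEF factors, so capitals mark the letters CTTTGAT, the core that these factors read, on either strand. The Hoxd8 promoter lies at chr2:74704365-74704664 on the plus strand, the Hoxd10 promoter at chr2:74691641-74691940 on the plus strand, and the Hoxa9 promoter at chr6:52227321-52227620 on the minus strand.
Hoxd8: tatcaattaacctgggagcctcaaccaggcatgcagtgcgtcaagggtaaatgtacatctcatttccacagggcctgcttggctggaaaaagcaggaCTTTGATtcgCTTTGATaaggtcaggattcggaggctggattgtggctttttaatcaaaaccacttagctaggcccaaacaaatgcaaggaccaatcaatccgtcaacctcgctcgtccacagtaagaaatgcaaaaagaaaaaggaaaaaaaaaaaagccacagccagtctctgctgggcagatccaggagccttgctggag
Hoxd10: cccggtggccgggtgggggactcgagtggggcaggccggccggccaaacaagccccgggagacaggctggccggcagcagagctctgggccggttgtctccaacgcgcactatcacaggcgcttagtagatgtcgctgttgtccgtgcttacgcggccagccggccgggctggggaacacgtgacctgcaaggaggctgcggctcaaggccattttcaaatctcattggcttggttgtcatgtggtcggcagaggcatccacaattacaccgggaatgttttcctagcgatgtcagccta
Hoxa9: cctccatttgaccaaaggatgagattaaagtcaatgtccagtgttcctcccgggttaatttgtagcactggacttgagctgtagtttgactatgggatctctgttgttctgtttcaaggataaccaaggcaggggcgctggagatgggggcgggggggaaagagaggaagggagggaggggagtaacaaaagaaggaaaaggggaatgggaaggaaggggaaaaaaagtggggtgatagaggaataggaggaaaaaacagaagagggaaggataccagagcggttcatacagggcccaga
The Hoxd8 window held the TCF/LEF core at 2 places on its own strand, beginning 153 and 143 bases before the start. No other HOX promoter among the 24 held it. So 1 of 24 HOX promoters had the core, a share near that of all promoters of the same length in the whole table, 1225 of 32851 (3.73%). The letters CCAAT stood in 15 of the 24 HOX promoters and in 37.4% of all, and TATAAA in 4 of 24 and in 13.6% of all. The HOX-PBX motif TGATNNAT, which can overlap the TCF/LEF core by its first 4 letters, was in 4 of 24 HOX promoters and 8.85% of all, and the AP-1 motif TGANTCA in 1 of 24 and 7.81% of all. All motifs were searched on both strands, and a match is a run of letters and not a site shown to be bound. HOX promoters held a median of 14.5 CG pairs, against 7 over all promoters. The Hoxa9 window held 4 of them and that of Hoxd10 held 22, so these co-varying genes did not share that feature.

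Expression in the tubule was carried by a small part of the family, in the HoxB and HoxD clusters. In HoxB the abundant genes formed no unbroken stretch. Between them Hoxb3, Hoxb4, Hoxb5 and Hoxb8 averaged 2.02, 1.59, 8.02 and 4.965 TPM. A mean of at least 1 TPM was reached by 17 of 39 genes, of at least 10 TPM by 8, of at least 40 TPM by 7 and of at least 100 TPM by 2. The other 22 genes had means between 0.0158 and 0.753 TPM, and the highest value of any of them in any library was 2.38 TPM. At the edge of the 1 TPM threshold stood Hoxd1 at 1.13 TPM inside it and Hoxa5 at 0.753 TPM outside it. No HOX gene was listed at 0 in every library, and 24 of the 39 were above 0 in all of them.

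**Figure D1:**
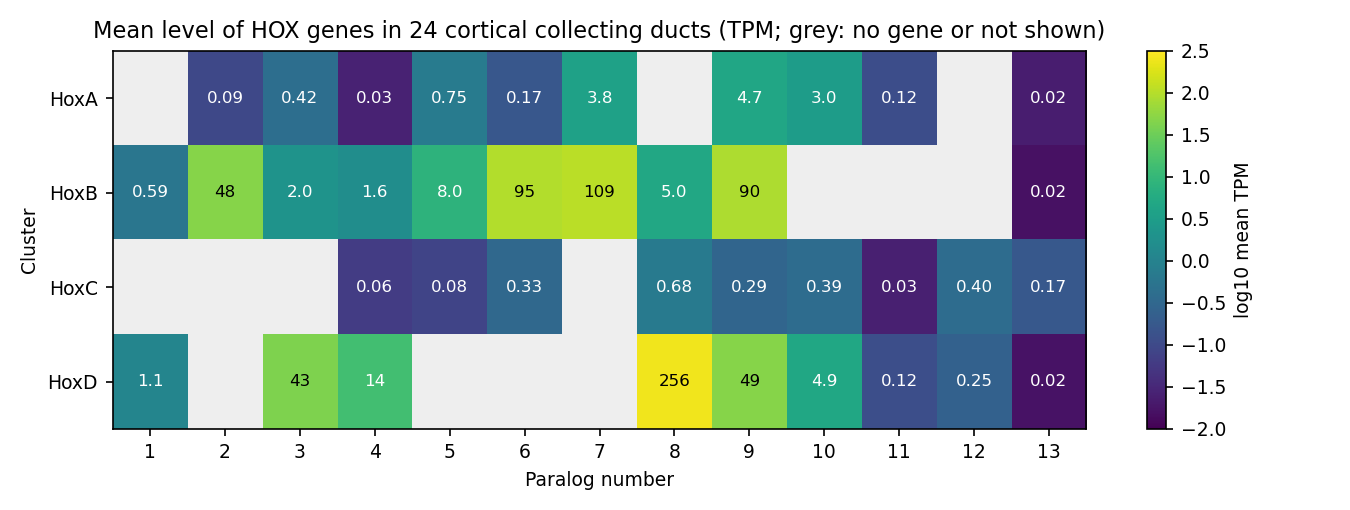
Mean TPM over 24 tubules of HOX genes, with the 4 clusters in rows and paralog numbers 1 to 13 in columns; colour is log10 of the mean TPM and grey marks positions with no gene or with a value not shown. Yellow and light green squares, the 7 genes of at least 40 TPM, lie only in the HoxB and HoxD rows.

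By cluster, HoxD and HoxB each held close to equal parts of the HOX RNA. HoxD made up 49.5 ± 2.24% of summed HOX TPM in MUT mice and 49.8 ± 3.76% in WT mice, and HoxB 48.7 ± 2.93% in MUT mice and 47.8 ± 3.85% in WT mice (SD, n = 4 each). HoxA came to 1.47 ± 0.663% in MUT and 2.07 ± 0.934% in WT mice. HoxC came to 0.317 ± 0.130% in MUT and 0.345 ± 0.0847% in WT mice, with none of its 9 genes at 1 TPM. The highest HoxC gene was Hoxc8, at 0.523, 0.467, 0.830 and 0.967 TPM in the 4 MUT mice and 0.470, 0.823, 0.740 and 0.607 TPM in the 4 WT mice. The whole family summed to 724 ± 61.6 TPM in MUT mice and 762 ± 21.7 TPM in WT mice, and the groups overlapped, from 648 to 797 TPM in MUT and from 741 to 792 TPM in WT. These sums are descriptions with no test.

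By paralog number, groups 6 to 9 held most of the RNA. The paralogs numbered 8 made up 35.2 ± 2.67% of summed HOX TPM over the 8 mice, number 9 made up 19.4 ± 1.35%, number 7 made up 15.2 ± 0.634% and number 6 made up 12.8 ± 1.80%. Anterior groups 2 and 3 added 6.50 ± 0.988% and 6.19 ± 0.523%. Groups 11, 12 and 13, the posterior end, each stayed under 0.1%, at 0.0360%, 0.0881% and 0.0309%. The Hox11 genes, which act in the nephron-forming mesenchyme, were thus near the bottom of the family here: Hoxa11 averaged 0.118 TPM, Hoxc11 0.0250 TPM and Hoxd11 0.119 TPM. In most paralog groups a single gene dominated. Hoxb2 was 511 times Hoxa2, Hoxb6 was 290 times Hoxc6, Hoxd8 was 51.6 times Hoxb8 and Hoxb7 was 29.0 times Hoxa7, each in 8 of 8 mice. Group 9 was the exception among the abundant ones, with Hoxb9 at 1.82 times Hoxd9, also in 8 of 8 mice.

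Hoxd8 was the most abundant HOX gene in both groups. It averaged 298, 246, 226 and 220.3 TPM in the 4 MUT mice and 241, 274, 295 and 249.5 TPM in the 4 WT mice. The highest mouse and the 2 lowest were MUT ones, and the groups overlapped. Its difference was -0.11 in log2(TPM + 1), MUT minus WT (SE 0.10, 95% interval -0.34 to 0.13). Hoxb7, whose promoter drives ureteric bud transgenes, came second, at 111, 111, 115 and 97.8 TPM in MUT mice and 107, 119, 107 and 104 TPM in WT mice. It varied least of the 17 HOX genes of at least 1 TPM over the 24 tubules, with a coefficient of variation of 8.85%, against a median of 11.9% for the 8842 genes of at least 10 TPM. The level of Hoxb7 in MUT mice was within 0.01 log2 units of that in WT mice (difference -0.01, SE 0.07, 95% interval -0.16 to 0.14).

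Hoxb6 and Hoxb9 followed at similar levels. Hoxb6 was at 95.6, 102, 94.2 and 69.6 TPM in MUT mice and 119, 97.2, 75.9 and 103 TPM in WT mice, so that each group had 1 low mouse. Hoxb9 was at 98.9, 99.97, 88.0 and 83.2 TPM in MUT mice and 85.7, 101, 81.1 and 78.5 TPM in WT mice, again overlapping. Next came 3 genes between 40 and 50 TPM. Hoxd9, the neighbour of Hoxd8 on the chromosome, had 49.0, 46.7, 48.5 and 54.8 TPM in MUT mice and 42.5, 51.8, 50.2 and 49.0 TPM in WT mice. Hoxb2, a gene best known for patterning the hindbrain, had 45.8, 52.7, 46.7 and 32.7 TPM in MUT mice and 59.2, 54.6, 40.4 and 54.6 TPM in WT mice. Both groups of Hoxb2 values had 1 mouse well below the other 3, and they overlapped.

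Hoxd3 and Hoxd4, at the anterior end of HoxD, need a reservation. In the GENCODE M21 annotation, 62.3% of the exonic bases of Hoxd3 and 52.3% of those of Hoxd4 lie in exons of each other or of the read-through gene Gm28230 on the same strand, so the estimation of TPM had to divide shared reads between them. Antisense genes cover 8.78% of the exonic bases of Hoxd3 and 11.8% of those of Hoxd4, among them Hoxd3os1 at 86.1 TPM, and 27.3% of those of Hoxb2 lie under Hoxb3os. The strand of the libraries is not stated in the sources used here, so antisense reads in these values cannot be told apart. As deposited, Hoxd3 stood at 38.8, 42.5, 47.2 and 41.2 TPM in MUT mice and 42.4, 47.3, 43.1 and 44.1 TPM in WT mice. Hoxd4 stood at 14.6, 11.5, 12.6 and 13.1 TPM in MUT mice and 14.7, 14.9, 16.6 and 14.1 TPM in WT mice. All 4 WT mice were above 3 of the 4 MUT mice, and MUT mouse 1 lay among the WT values. The HoxA cluster was led by Hoxa9, at 5.84, 1.20, 2.89 and 4.86 TPM in MUT mice and 8.01, 1.62, 7.08 and 5.88 TPM in WT mice, a range far wider than that of the abundant HoxB and HoxD genes.

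**Figure D2:**
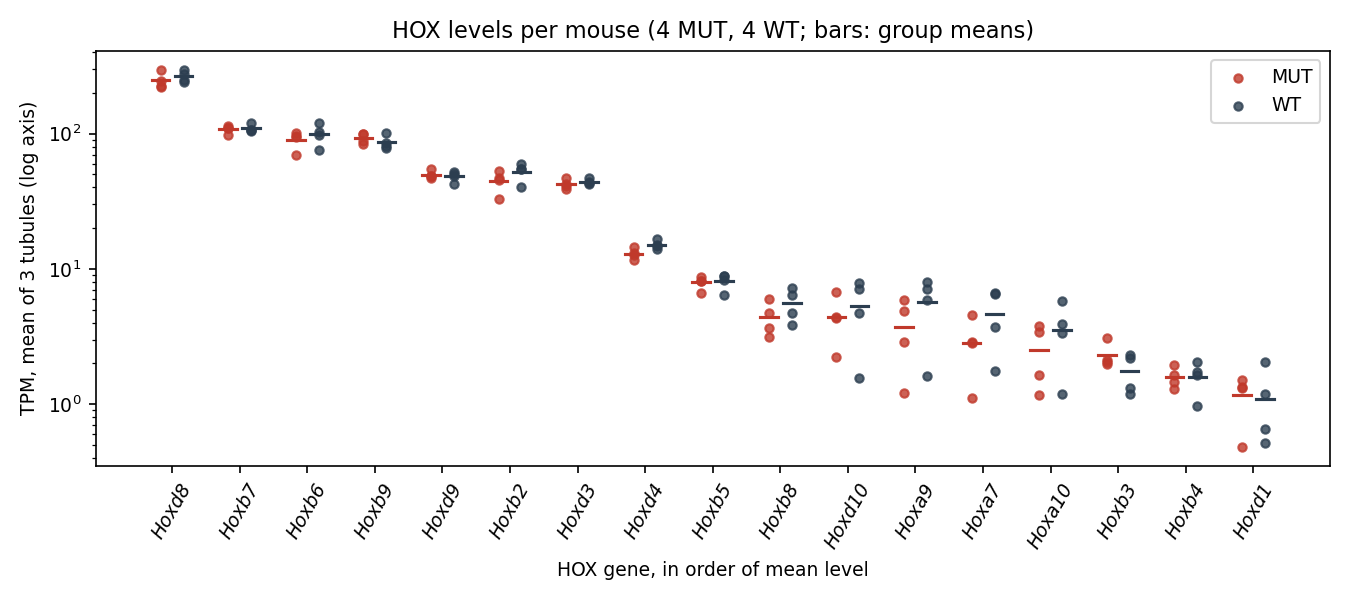
TPM of the 17 HOX genes averaging at least 1 TPM, in order of mean level; each point is the mean of 3 tubules of 1 mouse, MUT left and WT right, bars are group means, and the vertical axis is logarithmic. MUT and WT points overlap for every gene, and the points of Hoxd10, Hoxa9, Hoxa7 and Hoxa10 spread far more than those of the genes to their left.

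The order of levels was tested between neighbours, within mice, by a two-sided exact sign-flip permutation test over 8 mice with Benjamini-Hochberg adjustment over the 16 pairs. In 5 of the 16 pairs the higher gene exceeded the next one in 8 of 8 mice, with an adjusted p of 0.025 by that exact test. These steps were Hoxd8 above Hoxb7 (1.22 ± 0.16 log2 units, SD over 8 mice), Hoxb9 above Hoxd9 (0.86 ± 0.19), Hoxd3 above Hoxd4 (1.57 ± 0.18), Hoxd4 above Hoxb5 (0.74 ± 0.24) and Hoxb5 above Hoxb8 (0.66 ± 0.28). Steps that involve Hoxd3 or Hoxd4 rest on the division of shared reads described above. An error of that division could be alike in all mice, and a test over mice does not measure it. The same is true of an error particular to any other gene in these steps. For Hoxb5, 3.59% of the exonic bases lie under the antisense gene Hoxb5os, which averaged 78.1 TPM. The unadjusted p of 0.00781 behind the 5 steps, by the sign-flip test, is the smallest that 8 mice can give. Neighbours that did not differ past the threshold formed runs. The first was Hoxb7, Hoxb6 and Hoxb9, and the next was Hoxd9, Hoxb2 and Hoxd3. The last was Hoxb8, Hoxd10, Hoxa9, Hoxa7, Hoxa10, Hoxb3, Hoxb4 and Hoxd1. Only adjacent genes were compared, so a run does not mean equal levels. The last run went from Hoxb8 at 4.965 TPM down to Hoxd1 at 1.13 TPM. With 7 mice the smallest adjusted p for 5 such pairs is 0.05, so leaving out a mouse gave 0 pairs for 7 of the 8 mice and 6 pairs without WT mouse 1.

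The question of the design was whether alanine at both residues of beta-catenin changed the transcriptome of the tubule. For the HOX genes, no member passed limma's test fitted on the 15013 genes averaging at least 1 TPM (0 of 17 at an adjusted p under 0.05, adjusted p from 0.980 to 1.00). Over all genes tested 0% passed. At an unadjusted p under 0.05 stood 1 of 17 HOX genes, Hoxd4, against 4.6% of all genes tested, and 1.79% of all genes were past that p and lower in MUT mice. With 17 genes, 1 is a share near that background. Hoxd4 averaged 13.0 ± 1.25 TPM in MUT mice and 15.1 ± 1.06 TPM in WT mice (SD, n = 4 each), a log2 difference of -0.20 by limma (SE 0.09, 95% interval -0.39 to -0.01, unadjusted p = 0.0430, adjusted p = 0.980), and 3 of the 4 MUT mice were below every WT mouse. Upward, the smallest p was that of Hoxb3, which averaged 2.30 ± 0.526 TPM in MUT mice and 1.75 ± 0.579 TPM in WT mice (limma log2 difference 0.26, SE 0.18, unadjusted p = 0.194, adjusted p = 0.980). Without the 7 libraries with high markers its difference turned to -0.11. The 4 MUT mice had 3.08, 2.03, 2.10 and 1.97 TPM and the 4 WT mice 2.31, 1.31, 1.19 and 2.18 TPM. By annotation, 52.9% of the exonic bases of Hoxb3 are also covered by the antisense gene Hoxb3os, so reads of the pair cannot be told apart either.

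Among the 17 tested genes, 12 had a lower and 5 a higher mean log2(TPM + 1) in MUT than in WT mice. That is 70.6% lower, against 45.7% of all genes tested. Some of the 12 varied together between tubules, so they are not separate counts. The median log2 difference of the 17 genes was -0.11, against 0.01 over all genes tested. The median size of the difference was 0.12, against 0.08 over all genes. For the 8 genes of at least 10 TPM the largest difference was 0.23 log2 units in size, that of Hoxb2 (-0.23, SE 0.16, 95% interval -0.59 to 0.13), and the SEs ran from 0.07 to 0.16. The largest differences of all were those of Hoxa9 (-0.53, 95% interval -1.49 to 0.43) and Hoxa7 (-0.52, 95% interval -1.33 to 0.30), and these intervals leave room for a fall or a rise. Leaving out WT mouse 2, which had the lowest WT values of Hoxa7, Hoxa9, Hoxa10 and Hoxd10, put these 4 genes at an unadjusted p under 0.05 by limma (log2 differences -0.81, -0.91, -0.68 and -0.56, adjusted p from 0.603 to 0.638) and still called 0 of 16. In that fit 1153 of 14958 genes stood at an unadjusted p under 0.05 by limma, against 691 of 15013 with all mice. The 4 genes varied together between tubules, as described below, so they are not 4 separate results. Some other omissions moved the 4 differences the other way. Without MUT mouse 2 the differences of Hoxa7, Hoxa9, Hoxa10 and Hoxd10 were -0.28, -0.24, -0.20 and -0.02, and without WT mouse 1 they were -0.32, -0.34, -0.30 and -0.01. Without the 7 libraries with high markers they were -0.48, -0.27, -0.20 and -0.10.

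**Figure D3:**
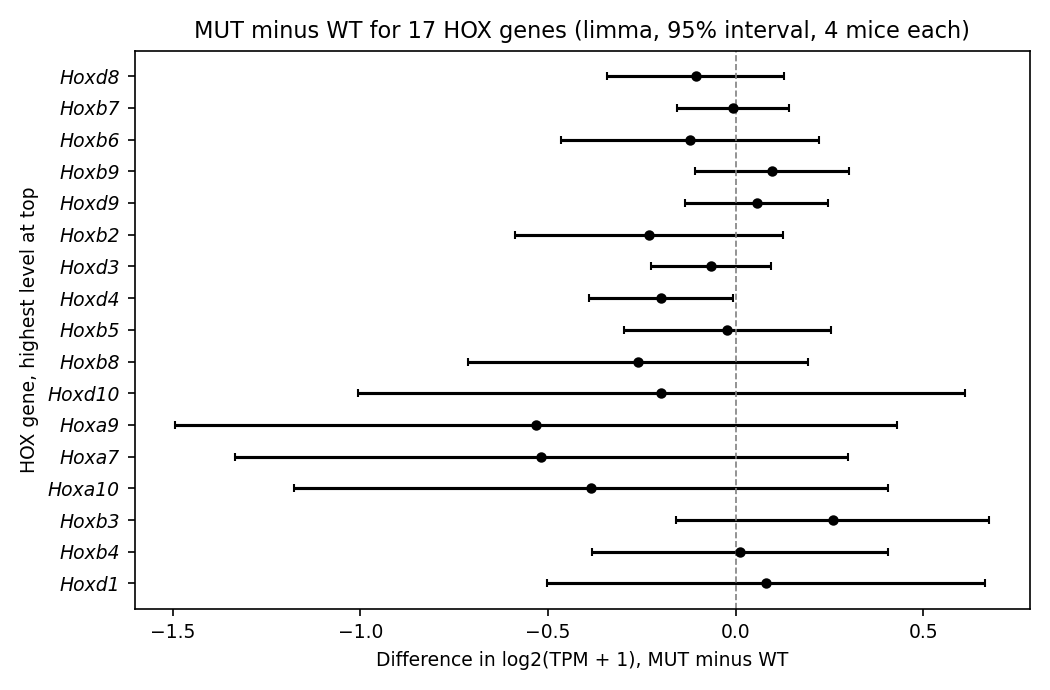
Difference in mean log2(TPM + 1), MUT minus WT, for the 17 tested HOX genes with the highest level at the top; points are limma estimates from 4 mice a group and bars are 95% intervals. The interval of every gene but Hoxd4 crosses 0, and those of Hoxd10, Hoxa9, Hoxa7 and Hoxa10 are the widest.

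Among the tested HOX genes, 0 had all 4 MUT mice above all 4 WT mice and 0 had them all below, against 1.94% and 1.08% of all genes tested.

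Of the 9 HOX genes between 1 and 10 TPM, 4 varied together between tubules. Hoxa7, Hoxa9, Hoxa10 and Hoxd10, a set chosen after these values were seen, had coefficients of variation of 71.1% to 73.6% over the 24 tubules, against a median of 37.2% among the 6171 genes between 1 and 10 TPM. Hoxb5, in the same range of levels at 8.02 TPM, had 15.4%. Hoxa9 went from 0.82 to 11.5 TPM in MUT tubules and from 1.36 to 12.2 TPM in WT tubules, and Hoxd10 from 1.29 to 14.4 TPM in MUT and from 1.06 to 13.8 TPM in WT tubules. Within MUT mouse 1 alone, Hoxa9 had 11.5, 4.03 and 1.98 TPM and Hoxd10 had 14.4, 4.48 and 1.29 TPM in the 3 tubules. Over the 24 tubules the 6 pairs of these genes had Pearson r between 0.61 and 0.89 (Spearman rho 0.63 to 0.88), and between 0.52 and 0.85 after each mouse's mean was removed. Taken separately, r was 0.78 to 0.91 over the 12 MUT tubules and 0.40 to 0.93 over the 12 WT tubules. The other 130 pairs of tested HOX genes had a median r of 0.04. The 7 libraries with high markers were chosen by the erythrocyte, proximal tubule and thick ascending limb lists alone. Without them, the 6 pairs had r between 0.64 and 0.90 over 17 tubules. Libraries high in connecting tubule or macrophage markers stayed in, so this omission does not set such material aside. These correlations are descriptions: tubules of 1 mouse share the animal, and TPM of 1 library share its total.

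**Figure D4:**
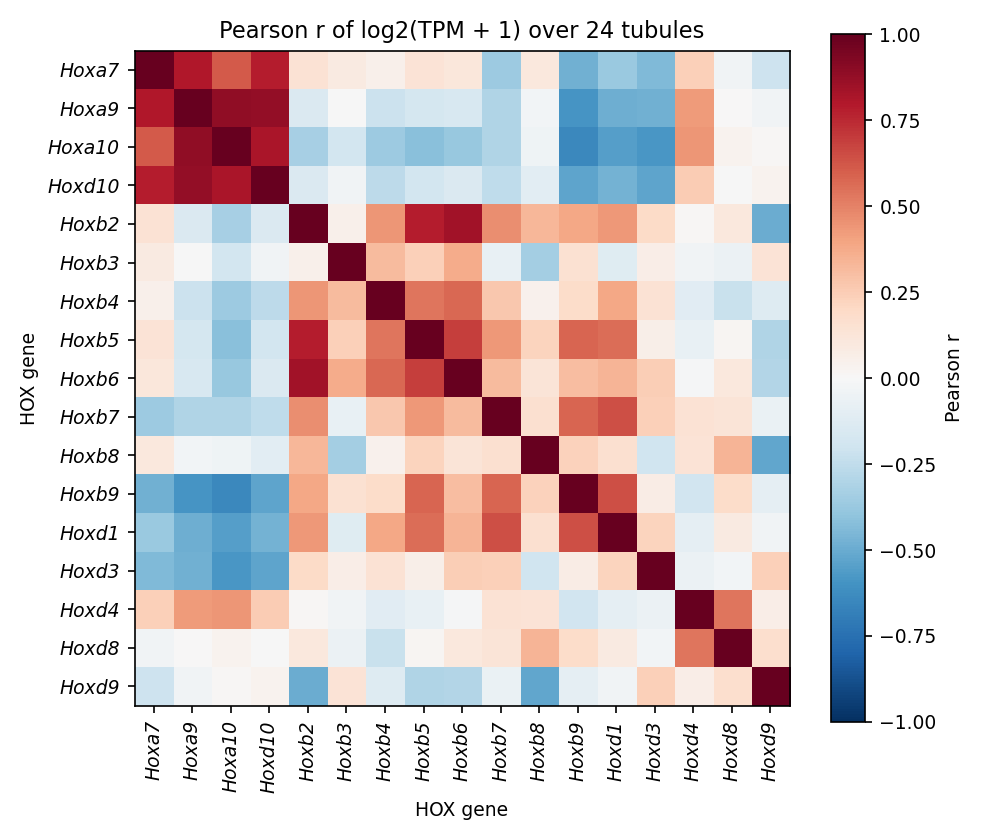
Pearson r of log2(TPM + 1) over 24 tubules for each pair of the 17 HOX genes averaging at least 1 TPM; rows and columns are genes, red is positive and blue negative. The square of Hoxa7, Hoxa9, Hoxa10 and Hoxd10 at the top left is red throughout, and Hoxb2, Hoxb5 and Hoxb6 form a smaller red group.

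The genes most like Hoxa9 over the 24 tubules, among the other 15012 tested, were Hoxa10 (r 0.89), Hoxd10 (r 0.88), S100g (r 0.86), Kl (r 0.83), Hoxa7 (r 0.80) and Trpv5 (r 0.80). Trpv5 encodes the apical calcium channel of the late distal convoluted and connecting tubule, S100g the calcium-binding calbindin-D9k and Kl the FGF23 co-receptor klotho. S100g ranged from 31.4 to 3052 TPM in MUT tubules and from 214 to 3727 TPM in WT tubules, and Trpv5 from 1.5 to 18.4 TPM in MUT and from 2.33 to 17.8 TPM in WT tubules. The tubule highest in Hoxa9 in each group was also the highest in S100g: MUT mouse 1 tubule 1 with 11.5 TPM of Hoxa9 and 3052 TPM of S100g, and WT mouse 1 tubule 2 with 12.2 and 3727 TPM. Hoxd10 had the same partners in another order, Hoxa9, Kl (r 0.83), Trpv5 (r 0.82), Hoxa10 and S100g (r 0.81). Further down the first 10 stood Fcgr2b (r 0.76) and Cd68 (r 0.71) for Hoxa9 and C1qa (r 0.72) for Hoxd10. The first 10 of Hoxa7 also held Cd68 (r 0.77), Csf1r (r 0.76) and C1qa (r 0.76). Those of Hoxa10 held Sord (r 0.76) and Mpc1 (r 0.75), so the partners differed by gene. Csf1r and C1qa belong to the macrophage and leukocyte markers. Without the 7 libraries with high markers, Hoxa9 had r = 0.87 with S100g, 0.85 with Trpv5 and 0.88 with Kl over 17 tubules. The tubules highest in Hoxa9 stayed among these 17. Macrophage and leukocyte markers summed to 656.9 TPM in MUT mouse 1 tubule 1 and 543.5 TPM in WT mouse 1 tubule 2. Distal convoluted and connecting tubule markers summed to 412.7 and 728.8 TPM in the same tubules.

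Markers of other cells moved with these 4 genes. The distal convoluted and connecting tubule list, 6 of whose 7 members had a mean of at least 1 TPM, summed to 234 to 896 TPM in MUT libraries and 146 to 2385 TPM in WT libraries, and its mean log2 level had r = 0.57 with Hoxa9, 0.51 with Hoxa7, 0.47 with Hoxa10 and 0.42 with Hoxd10. After each mouse's mean was removed these were 0.19, 0.24, 0.06 and 0.06. Slc12a3, the thiazide-sensitive cotransporter that defines the distal convoluted tubule, had r = 0.02 with Hoxa9 and -0.19 with Hoxd10. The macrophage and leukocyte list, all 6 of whose members had a mean of at least 1 TPM and none of which was at 0 throughout, summed to 46.2 to 856 TPM in MUT and 43.2 to 805 TPM in WT libraries. Its r was 0.74 with Hoxa7, 0.69 with Hoxd10, 0.67 with Hoxa9 and 0.63 with Hoxa10, and between 0.56 and 0.77 after each mouse's mean was removed. Type A intercalated markers went the other way, at r = -0.68 with Hoxa10, -0.54 with Hoxd10, -0.53 with Hoxa9 and -0.37 with Hoxa7. After each mouse's mean was removed, these r lay between -0.603 and -0.355. The 3 type A markers summed to 639 to 1314 TPM in MUT and 532 to 1460 TPM in WT libraries. The part of these cells in the HOX levels was not tested.

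Hoxb6 and Hoxb2 followed a different set of genes. The closest gene to Hoxb6 of the 15012 was Jund (r 0.93), then Klf6 (r 0.91), Zfp36l1 (r 0.90) and Bhlhe40 (r 0.89), with Junb (r 0.88) and Ier2 (r 0.87) among the first 10. Jund and Junb encode AP-1 subunits, and Junb, Ier2 and Klf6 are known as immediate early genes, which are switched on within minutes of a stimulus. After each mouse's mean was removed, Hoxb6 still had r = 0.87 with Jund. The lowest and highest Hoxb6 values were 64.7 TPM in MUT mouse 4 tubule 3, where Jund was at 136 TPM, and 136 TPM in WT mouse 1 tubule 2, where Jund was at 478 TPM. Hoxb2 was closest to Zfp36l1 (r 0.90) and Klf6 (r 0.89), and had Fos (r 0.85) among its first 10. Its r was 0.84 with Hoxb6 and 0.79 with Hoxb5, and 0.78 and 0.68 over the 17 tubules without high markers. After each mouse's mean was removed, r was 0.40 with Hoxb6 and 0.81 with Hoxb5. The low MUT mouse of Hoxb6 and Hoxb2, mouse 4, also had the lowest MUT levels of Jund in all 3 tubules, from 136 to 179 TPM. The part of the immediate early genes in these HOX levels was not tested.

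Hoxb9 rose with the principal cell and the type A intercalated markers alike and fell with the type B markers. Its r was 0.76 with the mean log2 level of the 10 principal cell markers, 0.75 with the type A intercalated markers and -0.73 with the type B intercalated markers, whose 4 members summed to 2377 to 4225 TPM in MUT and 1762 to 4684 TPM in WT libraries. After each mouse's mean was removed, these r were 0.63, 0.60 and -0.61. Hoxb9 was highest in MUT mouse 1 tubule 3, at 113 TPM, and lowest in WT mouse 3 tubule 2, at 71.6 TPM. That WT tubule also held the most erythrocyte RNA, and without the 7 libraries with high markers the r with the principal cell markers was 0.80. The closest genes to Hoxb9 were Cyria (r 0.86), Ppic (r 0.86) and Apela, which encodes a peptide ligand of the apelin receptor (r 0.85). For Hoxb7, r was 0.59 with the principal cell markers and -0.66 with the type B markers. Hoxd1 had the pattern of Hoxb9, with r = 0.725 for principal cell, 0.818 for type A and -0.817 for type B markers. Hoxd8 was closest to Isoc1 (r 0.87), but after each mouse's mean was removed that r was 0.61. In all, r was computed for 544 pairs of a HOX gene with a marker list or marker gene.

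**Figure D5:**
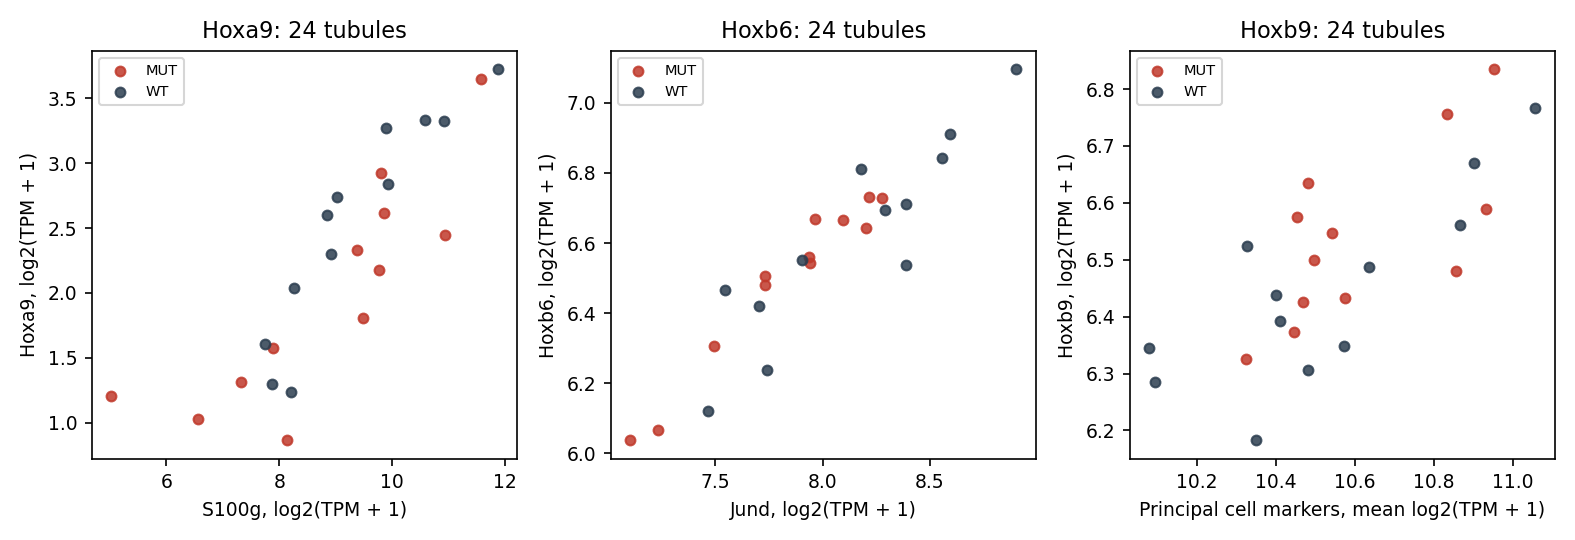
Log2(TPM + 1) over 24 tubules, MUT red and WT dark blue, of Hoxa9 against S100g (left), Hoxb6 against Jund (middle) and Hoxb9 against the mean of 10 principal cell markers (right); each point is 1 tubule. In each panel the points rise together (r 0.86, 0.93 and 0.76), and MUT and WT points lie along the same band.

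Within the cluster spans, 29 annotated genes other than HOX genes were in the table, and 7 of them had a mean of at least 1 TPM. The 3 highest were Hoxd3os1, an antisense transcript of HoxD, at 86.1 TPM, Hoxb5os, an antisense transcript of HoxB, at 78.1 TPM, and Gm53 of HoxB, singled out after its value was seen, at 55.5 TPM. Hoxb5os stood far above its sense gene Hoxb5, and 3.59% of the exonic bases of Hoxb5 overlap it by annotation. Hoxd3os1 was at 89.7 ± 6.71 TPM in MUT mice and 82.6 ± 7.02 TPM in WT mice (SD, n = 4 each), and Hoxb5os at 77.1 ± 5.43 TPM in MUT mice and 79.2 ± 4.00 TPM in WT mice. Of the list of noncoding and other genes inside the clusters, 4 were tested, 2 were higher and 2 lower in MUT mice, and 0 were called. For this list and those below, the share of all genes tested was 45.7% lower in MUT mice and 0% called. Hoxd3os1 had the smallest p of them (limma log2 difference 0.12, SE 0.08, unadjusted p = 0.144, adjusted p = 0.980). Hotair and Hottip, long noncoding RNAs of HoxC and HoxA, averaged 0.0779 and 0.185 TPM. The rows of the 6 microRNA genes in the clusters were listed at 0 in all libraries. The libraries held polyadenylated RNA, so these values do not show whether the mature microRNAs were present.

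Genes that flank the clusters are no HOX genes but lie in the same stretches of chromosome. Of 9 tested flanking genes 5 were higher and 4 lower in MUT mice and 0 were called, with a median log2 difference of 0.02, against 0.01 over all genes. Hibadh, beside HoxA, averaged 286 ± 17.5 TPM in MUT mice and 283 ± 22.8 TPM in WT mice. Mtx2, beside HoxD, averaged 119 ± 5.59 TPM in MUT mice and 111 ± 4.6 TPM in WT mice and had the smallest p of the list (limma log2 difference 0.10, SE 0.05, unadjusted p = 0.0920, adjusted p = 0.980).

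HOX proteins bind DNA with TALE cofactors of the Pbx, Meis and Pknox families. Of 9 such genes 7 were tested, 6 were higher and 1 lower in MUT mice, and 0 were called, with a median log2 difference of 0.10 against 0.01 over all genes. The highest was Pknox1, at 22.3 ± 1.69 TPM in MUT mice and 20.8 ± 1.57 TPM in WT mice (SD, n = 4 each), which also had the smallest p (limma log2 difference 0.09, SE 0.08, unadjusted p = 0.257, adjusted p = 0.980). Pbx3 followed at 13.0 ± 1.95 TPM in MUT mice and 12.0 ± 0.900 TPM in WT mice. Meis1 and Pknox2 averaged under 1 TPM, at 0.980 and 0.740 TPM.

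Polycomb complexes keep HOX genes silent by methylating and binding histone H3 at lysine 27. Of 21 such genes 20 were tested, 9 were higher and 11 lower in MUT mice, and 0 were called, with a median log2 difference of -0.01. Bmi1, a subunit of Polycomb complex 1, had the smallest p. Of the 20 it alone was at an unadjusted p under 0.05 by limma, a share near the 4.6% of all genes tested. It averaged 34.8 ± 1.74 TPM in MUT mice and 29.9 ± 1.60 TPM in WT mice (SD, n = 4 each, limma log2 difference 0.23, SE 0.07, unadjusted p = 0.00699, adjusted p = 0.980). The most abundant were the complex 1 subunits Cbx6, at 80.0 ± 6.73 TPM in MUT and 84.8 ± 15.4 TPM in WT mice, and Phc2, at 77.4 ± 6.44 TPM in MUT and 79.6 ± 7.92 TPM in WT mice.

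Trithorax proteins and the H3K27 demethylases work against Polycomb. All 15 were tested, 4 were higher and 11 lower in MUT mice, and 0 were called, with a median log2 difference of -0.03. Over all genes tested 45.7% were lower in MUT mice, with a median of 0.01. The list was not tested as a set. Dpy30, a shared subunit of the H3K4 methyltransferase complexes, was at 165 ± 3.89 TPM in MUT mice and 168 ± 11.4 TPM in WT mice. Wdr5, another shared subunit, was at 60.7 ± 1.93 TPM in MUT mice and 55.1 ± 5.08 TPM in WT mice (limma log2 difference 0.14, SE 0.07, unadjusted p = 0.0656, adjusted p = 0.980). Retinoic acid and the Cdx factors open the clusters in the embryo. Of 19 genes of that list 8 were tested, 5 were higher and 3 lower in MUT mice, and 0 were called. Dhrs3, a retinaldehyde reductase, was the highest at 178 ± 13.7 TPM in MUT mice and 189 ± 4.41 TPM in WT mice, and the receptor Rxrb was at 44.6 ± 4.49 TPM in MUT mice and 48.5 ± 2.40 TPM in WT mice. The receptor Rxra had the smallest p, at 19.9 ± 8.94 TPM in MUT mice and 29.8 ± 7.07 TPM in WT mice (limma log2 difference -0.62, SE 0.29, unadjusted p = 0.0602, adjusted p = 0.980). Cdx1, Cdx2 and Cdx4 each averaged under 1 TPM, between 0.0829 and 0.127 TPM.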

How the data were processed

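The authors deposited a table of TPM for 24 libraries and 55416 gene rows. STAR, RSEM 1.3.3 and the build GRCm39 are named, with no role, per the submitters' processing notes; neither annotation release nor filters are named there. TPM keep no depth, so the depth is unknown and no interval that needs it is given.

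The 3 tubules of each mouse were averaged as log2(TPM + 1), and 4 MUT were set against 4 WT mice with limma 3.58.1 (R 4.3.3, trend, empirical Bayes, no covariate) over the 15013 genes averaging 1 TPM or more, with Benjamini-Hochberg adjustment and a threshold of 0.05. Differences are MUT minus WT on that scale, which understates changes of low genes. P-values measure the spread between mice. Both the limma and the sign-flip steps were tested on simulated data. HOX neighbours were compared by an exact sign-flip test. Repeated symbols kept the row with the highest mean TPM, and 1597 other rows stayed under their gene ID.

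Named were the 8 highest HOX genes, the highest of each cluster, members whose groups did not overlap (1 is not reported here), the smallest p in each direction, and for each list the 2 highest members and the smallest p. HOX exons and their overlaps come from GENCODE M21 on GRCm38, matched by gene ID, and promoters from RefSeq GRCm38.p6. The members, lists and tests were chosen with earlier results of these data known. Alternatives were other pseudocounts, filters, scalings and averages, a random effect or replicate block, and leaving out each mouse; leaving out 7 libraries with high markers was chosen after seeing the data.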

Additional observations from a re-analysis of the deposited data

Results flagged for a closer look

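Of 44 sets of 4 mouse values (the 17 tested HOX genes, the 4 cluster sums and the sum of all HOX genes, in MUT and in WT mice), 1 held a mouse that stood apart by Dixon's criterion, which chance alone flags in about 1 set in 20. It was Hoxb3 in MUT mouse 1, at 3.08 TPM, against 1.97 to 2.10 TPM in the other 3 MUT mice. Its gap to the nearest mouse was 0.883 of the range of the MUT group, above the criterion for 4 values. In that mouse Hoxb3 had 1.71, 2.43 and 5.11 TPM in the 3 tubules, so that the last tubule alone was above the others.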

How the results depend on the processing

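Under the 18 alternatives run for it, the number of called HOX genes stayed at 0, including the replicate block (0 HOX genes and 0 of all genes called, 2 HOX genes and 483 of all genes at an unadjusted p under 0.05), pseudocounts of 0.1 and 5, no filter, a filter at 10 TPM, median-ratio scaling and quantile normalization. Over all genes the number called was 0 as well, except 1 in a fit of the 24 libraries with a random effect for the mouse, and it was 0 to 0 when each mouse was left out. Same-numbered mice did not deviate together (r from -0.04 to 0.02 over genes), and the labels state no block. These r cannot show that the mice were unpaired, so the replicate block is not taken as a paired analysis. The number of neighbouring HOX genes that differed was 5, and 0 to 6 when each mouse was left out, for the reason of the test's construction given above. Cluster shares moved by less than their SD over mice under every alternative run. Of 296 log2 differences of single HOX genes under the alternatives, 277 kept their sign, 19 turned it and 0 were called (smallest adjusted p 0.603). Those that turned belonged to 6 genes. Without the 7 libraries with high markers, Hoxb3 was at -0.11, Hoxb4 at -0.058, Hoxb5 at 0.028 and Hoxd9 at -0.082. Hoxb4 was at -0.001 with median-ratio scaling and -0.021 with quantile normalization, and Hoxb7 at 0.006 with the latter. Leaving out a mouse turned Hoxb4 (-0.121 to 0.092), Hoxb5 (-0.119 to 0.050), Hoxb7 (-0.034 to 0.042), Hoxd1 (-0.049 to 0.248) and Hoxd9 (-0.017 to 0.094). The cause of these turns was not tested. For Hoxd4 the adjusted p ran from 0.654 to 1 over the alternatives. Depth cannot be recovered from TPM, so no detection limit can be set for the 22 genes under 1 TPM.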
